A study of Mus musculus with 4 samples.

Results

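The MHC class II genes were read in LSK cells (Lin-Sca1+cKit+), a bone marrow fraction that contains blood stem cells and multipotent progenitors. The set was a list of 10 genes: H2-Aa, H2-Ab1, H2-Eb1, Cd74, Ciita, H2-DMa, H2-DMb1, H2-DMb2, H2-Oa and H2-Ob. A gene was measured by the probe set that names it alone and has the highest mean over the arrays, which gave a value for 9 of the 10, of 22180 genes measured in all. Cd74 shares its probe set with Mir5107 and was not counted. The 9 genes also passed the floor for low values, a highest value at or above 5.475 on the log2 scale (the median of all values), as did 14061 genes in all.

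There were 4 groups with 1 Affymetrix array each. In AMKO at day 8 and Ctrl at day 8, mice had received 5-fluorouracil (5FU) at 150 mg/kg, and AMKO at basal and Ctrl at basal were the day 0 groups. Per the labels, the LSK cells of each group came from male C57/B6 mice aged 4 months. 5FU is a pyrimidine analog that kills dividing cells and is used to bring quiescent stem cells into cycle. AMKO is not spelled out in the labels and stands here as a bare genotype label, so no targeted gene could be read, and neither a Cre driver nor the number of mice per array is stated.

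MHC class II molecules present peptides from endosomes to CD4 T cells. They are best known on B cells, dendritic cells and macrophages, and stem and progenitor cells also carry them. A classical class II molecule is a pair of an alpha and a beta chain that binds the invariant chain, encoded by Cd74, until it reaches an endosomal compartment. There the nonclassical molecule H2-DM helps exchange the invariant chain remnant for peptide, and H2-O restrains H2-DM. Ciita is the coactivator that the class II promoters need, and it acts through the factors RFX, CREB and NF-Y, which bind the X and Y boxes of these promoters.

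Promoters of 7 of the 10 genes were found in a RefSeq table (GRCm38.p6). H2-Ab1, Cd74 and Ciita had no entry. The 150 bases before the transcription start are shown for 5 genes on chromosome 17. These are the classical genes H2-Aa and H2-Eb1, the neighbours H2-DMb1 and H2-DMb2, whose day 8 values ran apart, and H2-Ob, which holds the same pair of box cores. Capitals mark 3 motifs, searched on both strands and chosen after reading these sequences: TGATTGG (Y box core), AAC and TGATG with any 3 bases between them (X box core) and TGACGTCA (a cyclic AMP response element). No overlap between motifs was found here.
H2-Aa (chr17:34287824-34287973, minus strand): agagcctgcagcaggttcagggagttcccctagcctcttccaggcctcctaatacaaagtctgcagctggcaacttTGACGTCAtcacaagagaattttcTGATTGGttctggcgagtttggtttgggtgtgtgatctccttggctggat
H2-Eb1 (chr17:34305717-34305866, plus strand): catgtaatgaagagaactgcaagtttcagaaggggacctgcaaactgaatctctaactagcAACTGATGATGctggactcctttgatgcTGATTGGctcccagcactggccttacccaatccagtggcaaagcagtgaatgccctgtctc
H2-DMb1 (chr17:34153041-34153190, plus strand): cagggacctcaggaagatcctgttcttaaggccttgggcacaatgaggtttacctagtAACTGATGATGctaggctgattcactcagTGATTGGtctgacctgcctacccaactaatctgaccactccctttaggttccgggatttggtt
H2-DMb2 (chr17:34145099-34145248, plus strand): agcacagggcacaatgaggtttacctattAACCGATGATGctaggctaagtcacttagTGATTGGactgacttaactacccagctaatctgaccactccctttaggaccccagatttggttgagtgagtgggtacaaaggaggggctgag
H2-Ob (chr17:34238755-34238904, plus strand): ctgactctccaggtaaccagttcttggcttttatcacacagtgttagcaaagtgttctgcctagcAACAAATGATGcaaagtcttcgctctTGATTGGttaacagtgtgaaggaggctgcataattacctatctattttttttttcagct

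Of the 7 genes with a promoter entry, 6 held the Y box core, these 5 and H2-Oa, and 7.82% of 32851 promoters of the same length held it. The X box core was present in 4 of the 7, H2-Eb1, H2-DMb1, H2-DMb2 and H2-Ob, and not in those of H2-Aa, H2-Oa or H2-DMa, against 0.615% of all promoters. The cyclic AMP response element was present in that of H2-Aa and in 1.79% of all promoters. Both cores together were in 17 promoters of the table, or 0.0517%, and 4 of the 17 were those of H2-Eb1, H2-DMb1, H2-DMb2 and H2-Ob. The X box core ended 18 bases before the Y box core in both H2-DMb1 and H2-DMb2, 17 before it in H2-Eb1 and 15 before it in H2-Ob. Neither entry of H2-DMa held any of the 3 motifs. With entries of 300 bases aligned, the promoters of H2-DMb1 and H2-DMb2 were identical at 58.9% of 353 alignment columns, gaps included. This was the highest of the 15 pairs aligned among these genes, H2-DMa left out. The next pair, H2-Eb1 and H2-Ob, was 51.4% identical. Because the motifs were chosen after reading these sequences, matches in these genes were to be found, and the shares of all promoters are no test of enrichment. A match of letters is a description of the sequence and not a site of binding. A missing match, such as that of the X box core in H2-Aa, does not show that a box is absent.

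The labelled cell type was checked against 10 LSK and stem or progenitor markers, of which 8 were measured. The 8 reached the floor on each array, with means of 9.59 for AMKO day 8, 9.48 for Ctrl day 8, 9.80 for AMKO basal and 9.75 for Ctrl basal. Kit was at 11.16 and 11.08 at day 8 in AMKO and Ctrl, against 11.87 and 11.84 at basal, and Ly6a, which encodes Sca-1, was not measured by a probe set of 1 gene. Between day 8 and basal in Ctrl, Cd34 differed by 1.03, Flt3 by 1.57 and Procr by -1.64. So 2 of the 8 were at least 2-fold higher and 1 lower, where 5.02% and 4.46% of all genes were. In AMKO 0 of the 8 were 2-fold different either way, where 4.69% and 3.55% of all genes were. The Ctrl day 8 array stood apart in markers of other blood cells. Highest there were 11 of 11 mature neutrophil genes and 11 of 12 monocyte and macrophage genes, against 20.9% of all genes. The Ctrl basal array stood apart in skeletal muscle genes. Of these, 7 of 7 were highest there, against 20.3% of all genes, with a median of 8.93 against 5.43 to 6.10 on the other arrays. The muscle genes were picked with earlier results of these data known. With bulk RNA, fewer cells of a type and less RNA per cell cannot be told apart, and with 1 array a group no difference below carries a replicate error.

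The classical class II genes H2-Aa, H2-Ab1 and H2-Eb1 were lower in AMKO than in Ctrl at both times. H2-Aa, the alpha chain of I-A, had log2 values of 7.21 in AMKO and 8.52 in Ctrl at day 8, and of 8.41 in AMKO and 9.12 in Ctrl at basal. H2-Ab1, the beta chain of I-A, had 9.47 in AMKO and 10.13 in Ctrl at day 8, and 9.41 in AMKO and 10.19 in Ctrl at basal. H2-Eb1, the beta chain of I-E, had 7.59 in AMKO and 8.64 in Ctrl at day 8, and 8.25 in AMKO and 8.78 in Ctrl at basal. For each of these genes both Ctrl arrays lay above both AMKO arrays, and the AMKO minus Ctrl differences kept their direction under quantile normalization and median centring. In linear terms the AMKO arrays were 2.48-fold lower at day 8 and 1.64-fold lower at basal for H2-Aa. The same folds were 1.58 and 1.72 for H2-Ab1, and 2.07 and 1.44 for H2-Eb1.

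**Figure D1:**
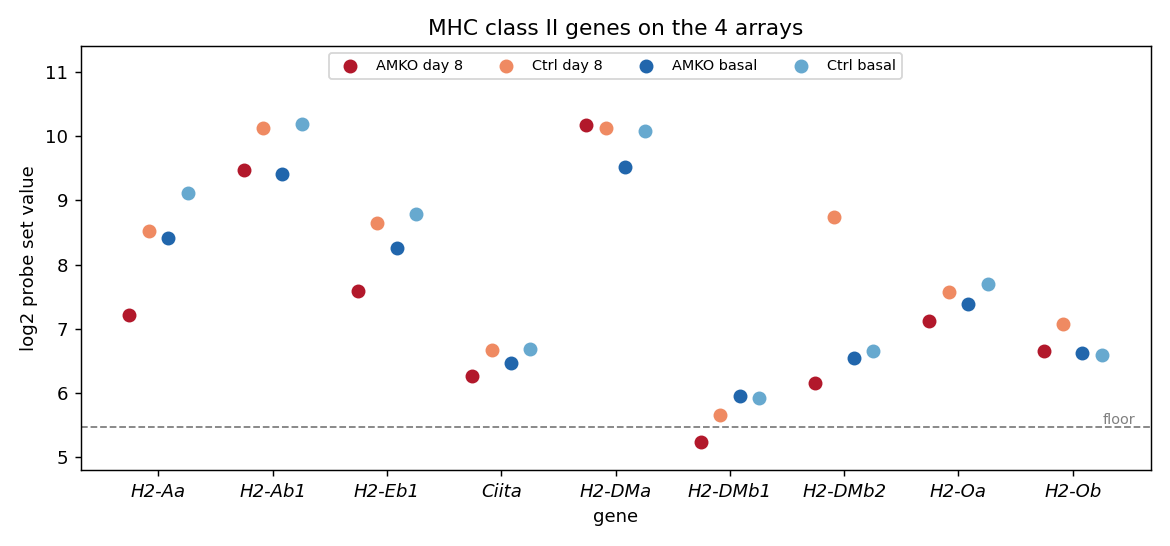
Log2 probe set values (vertical axis) of the 9 measured MHC class II genes (horizontal axis) on the arrays of AMKO day 8, Ctrl day 8, AMKO basal and Ctrl basal, 1 point per array and no replicates. The dashed line is the floor at 5.475. H2-Aa, H2-Ab1 and H2-Eb1 have both Ctrl points above both AMKO points, and H2-DMb2 has a single high point of 8.74 on the Ctrl day 8 array.

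At day 8, 3 of the 9 genes were at least 2-fold lower in AMKO than in Ctrl, namely H2-DMb2, H2-Aa and H2-Eb1, where 2.63% of all 14061 genes were. None of the 9 was at least 2-fold higher, against 0.74% of all genes. The differences of 8 of the 9 were below 0, where 39.5% of all genes were, and the median of the 9 was -0.46, against 0.06 over all genes. At basal, 0 of the 9 were at least 2-fold lower, against 0.697% of all genes, and 0 were at least 2-fold higher, against 0.228%. The differences of 7 of the 9 were below 0, where 49% of all genes were, with a median of -0.30 for the 9 and 0.00 over all genes; the other two, H2-DMb1 at 0.04 and H2-Ob at 0.02, changed sign under median centring. H2-Aa and H2-Ab1 were at least 1.5-fold lower in AMKO at both times, as were 0.462% of all genes. The basal comparison uses neither day 8 array, but it does use the Ctrl basal array with its high muscle genes, whose part in these differences was not tested.

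The AMKO effect averaged over both times was fitted with limma on all 14061 genes, with additive terms for genotype and treatment. It was -1.01 for H2-Aa (SE 0.20), -0.72 for H2-Ab1 (SE 0.11) and -0.79 for H2-Eb1 (SE 0.19). The unadjusted p-values of this limma fit were 0.0097, 0.0044 and 0.0163, and each adjusted p was 0.906. No class II gene passed an adjusted p of 0.05, and 0 of the 14061 genes (0%) did, while 3 of the 9 had an unadjusted p under 0.05, as did 3.17% of all genes. With 1 array left out in turn and genotype as the only term, the count of 3 became 0 without AMKO day 8, 0 without Ctrl day 8, 2 without AMKO basal and 1 without Ctrl basal. The fitted effect of H2-Aa then became -0.41 without AMKO day 8 and -1.61 without AMKO basal, and that of H2-Eb1 -0.46 without AMKO day 8, while H2-Ab1 stayed between -0.75 and -0.69. The error of this fit joins how far the 5FU effect differed from AMKO to Ctrl, with 1 degree of freedom, to limma's prior over all genes, with 2.62. It is not a spread of replicates.

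The invariant chain could be read only through the probe set shared by Cd74 and Mir5107. That probe set had 7.66 in AMKO and 9.40 in Ctrl at day 8, and 8.56 in AMKO and 9.25 in Ctrl at basal. As with the classical genes, both Ctrl arrays lay above both AMKO arrays, and AMKO minus Ctrl was -1.74 at day 8 and -0.69 at basal on the log2 scale. Which of the 2 genes gave the signal cannot be read from this array.

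Ciita, the class II coactivator, had 6.27 in AMKO and 6.67 in Ctrl at day 8, and 6.47 in AMKO and 6.68 in Ctrl at basal. Its differences of -0.40 and -0.21 ran the same way as those of the classical genes and were smaller. The limma average was -0.31 (SE 0.16, adjusted p 0.906). H2-Oa, the alpha chain of H2-O, had 7.12 in AMKO and 7.58 in Ctrl at day 8, and 7.39 in AMKO and 7.69 in Ctrl at basal, so that it too was highest on the Ctrl arrays. A second H2-Oa probe set, shared with BC051537, lay under the floor on each array and did not show this, with 5.40 in AMKO and 5.34 in Ctrl at day 8, and 5.24 in AMKO and 5.17 in Ctrl at basal. H2-Ob, the beta chain of H2-O, had 6.65 in AMKO and 7.07 in Ctrl at day 8, and 6.62 in AMKO and 6.60 in Ctrl at basal. Its basal values were nearly equal, and its highest value was that of the Ctrl day 8 array.

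The chains of H2-DM, the peptide exchange factor, ran differently from each other. H2-DMa, its alpha chain, had 10.17 in AMKO and 10.13 in Ctrl at day 8, and 9.52 in AMKO and 10.07 in Ctrl at basal, so its single low array was AMKO basal. H2-DMb1, a beta chain, had 5.24 in AMKO and 5.66 in Ctrl at day 8, and 5.96 in AMKO and 5.92 in Ctrl at basal; the AMKO day 8 value lay under the floor, so the size of that difference is uncertain. H2-DMb2, the other beta chain gene, had 6.16 in AMKO and 8.74 in Ctrl at day 8, and 6.54 in AMKO and 6.66 in Ctrl at basal. H2-DMb2 was thus 5.98-fold lower in AMKO than in Ctrl at day 8 and 1.09-fold lower at basal, with 3 arrays close together and the Ctrl day 8 array apart. H2-DMb1 and H2-DMb2 are close relatives whose probe sets may share signal, which was not tested.

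**Figure D2:**
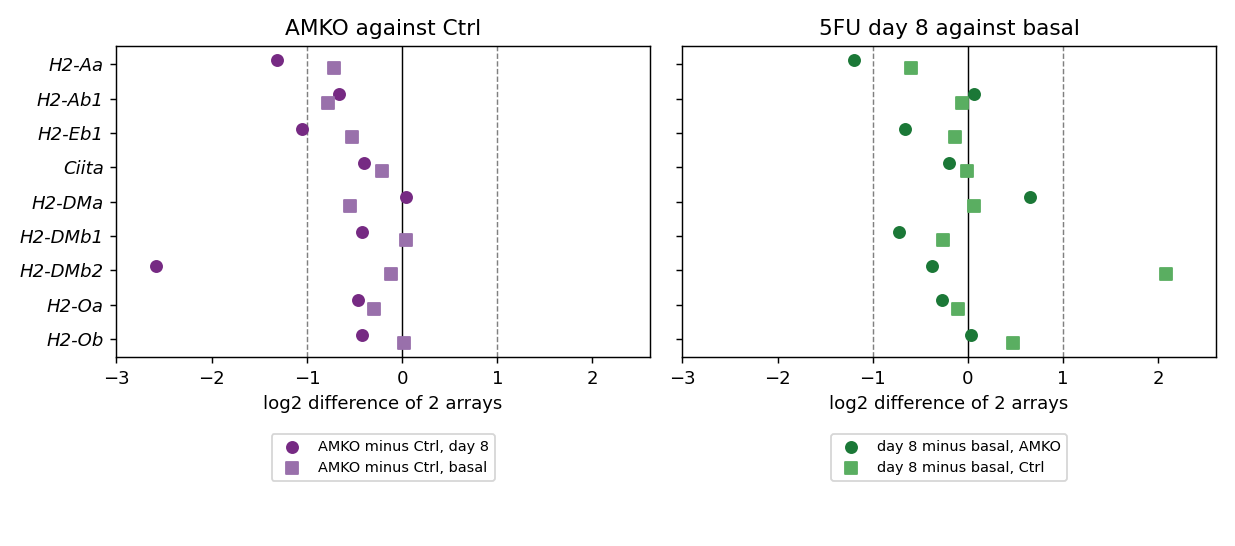
Log2 differences of 1 array minus 1 array (horizontal axes) for the 9 measured genes (vertical axis): AMKO minus Ctrl at day 8 and at basal on the left, and day 8 after 5FU minus basal in AMKO and in Ctrl on the right. Dashed lines mark 2-fold. H2-DMb2 lies at -2.58 for AMKO minus Ctrl at day 8 and at 2.08 for day 8 minus basal in Ctrl, while most other points lie within 2-fold.

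How the class II genes differed between day 8 after 5FU and basal was read in each genotype, and most differences were small. The pairs of this comparison share their arrays with those of AMKO against Ctrl, so the same values stand behind both. In AMKO, 1 of the 9 genes was at least 2-fold lower at day 8, H2-Aa at -1.20 (2.30-fold), where 3.55% of all genes were, and 0 were at least 2-fold higher, where 4.69% were. In Ctrl, 1 was at least 2-fold higher, H2-DMb2 at 2.08 (4.23-fold), where 5.02% of all genes were, and 0 were at least 2-fold lower, where 4.46% were. Shares of 1 in 9 are too coarse to set against these backgrounds. The medians of the 9 were -0.27 in AMKO and -0.06 in Ctrl, against 0.03 and 0.01 over all genes, and 6 of the 9 were below 0 in each genotype, where 46.8% and 48.9% of all genes were.

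Within the I-A molecule the alpha and beta chains differed in their 5FU values. H2-Aa was lower at day 8 in both genotypes, with differences of -1.20 in AMKO and -0.60 in Ctrl, whereas H2-Ab1 stayed within 0.06 in AMKO (0.06) and in Ctrl (-0.06). H2-Eb1 lay between, at -0.66 and -0.14. H2-DMb1 differed by -0.72 in AMKO and -0.26 in Ctrl, and H2-DMa by 0.65 in AMKO and 0.06 in Ctrl. H2-Ob differed by 0.03 and 0.47, H2-Oa by -0.27 and -0.11, and Ciita by -0.20 and -0.01. After quantile normalization the signs of H2-Ab1 in AMKO and of H2-DMa and Ciita in Ctrl turned, so these 3 values show no direction.

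In the limma fit the 5FU effect averaged over genotypes was -0.90 for H2-Aa (SE 0.20, adjusted p 0.103), and 0 class II genes passed, among 0% of all genes. By unadjusted p under 0.05 it was 1 of the 9, H2-Aa, where 27.8% of all genes were; that count became 3 without the Ctrl day 8 array and 0 without the AMKO basal array. With the floor raised to the 75th percentile (7.32), which leaves 8228 genes in the test, the adjusted p of H2-Aa was 0.0466; over the other alternatives it ranged up to 0.699. The fitted effect of H2-Aa moved to -0.25 without the AMKO day 8 array and to -1.56 without the Ctrl day 8 array. H2-DMb2 averaged 0.85 (SE 0.66, adjusted p 0.464), a mean of opposite values in the genotypes. It became -0.44 without the Ctrl day 8 array and 2.14 without the AMKO day 8 array. The fits with an array left out had treatment as the only term. Without AMKO day 8, such a fit sets the Ctrl day 8 array alone against both basal arrays and averages over no genotypes.

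Over the 4 arrays, 6 of the 9 genes had their lowest value on the AMKO day 8 array, where 20.3% of all genes did. The exceptions were H2-DMa and H2-Ab1, lowest in AMKO basal, and H2-Ob, lowest in Ctrl basal. The Ctrl basal array held the highest value of 5 of the 9, H2-Aa, H2-Ab1, H2-Eb1, Ciita and H2-Oa, where it held that of 20.3% of all genes. The difference of the 5FU differences, AMKO minus Ctrl, was at least 2-fold for 1 of the 9, H2-DMb2 at -2.46, where 2.94% of all genes were at least 2-fold lower and 2.57% at least 2-fold higher. It was -0.60 for H2-Aa, -0.52 for H2-Eb1 and 0.12 for H2-Ab1, and it has no test with these arrays.

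The class II genes other than Cd74 and Ciita lie together on chromosome 17, interleaved with genes of class I presentation. In order along the chromosome, the protein-coding genes of the RefSeq table run H2-Oa, Brd2, H2-DMa, H2-DMb2, H2-DMb1, Psmb9, Tap1, Psmb8, Tap2, H2-Ob, H2-Ab1, H2-Aa and H2-Eb1. The immunoproteasome genes Psmb9 and Psmb8 and the peptide transporter genes Tap1 and Tap2 differed between AMKO and Ctrl by -0.24 to 0.06 at day 8 and by -0.19 to -0.06 at basal. H2-Ab1, H2-Aa and H2-Eb1, the classical genes that were lower in AMKO at both times, lie side by side. The stretch shown was cut at H2-Oa, with -0.46 and -0.30, and at H2-Eb1, so its ends were set by that choice. H2-DMb2, with -2.58 at day 8, stood between H2-DMa at 0.04 and H2-DMb1 at -0.42, its immediate neighbours. The promoters of H2-DMb1 and H2-DMb2 shown above share both box cores at the same spacing.

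**Figure D3:**
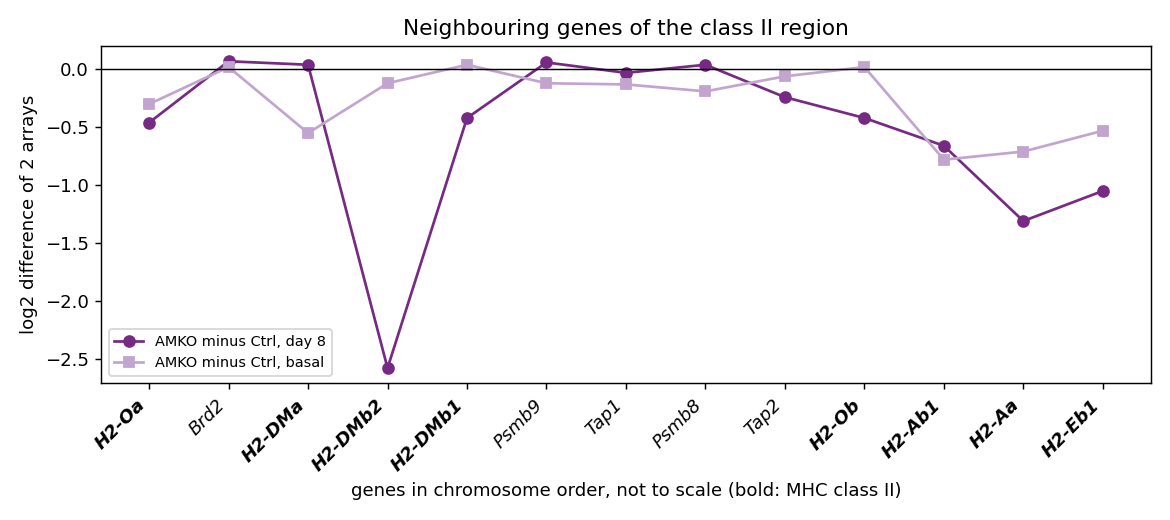
Log2 difference of AMKO minus Ctrl (vertical axis) at day 8 and at basal for 13 neighbouring protein-coding genes in their order along chromosome 17 (horizontal axis, not to scale, lines join neighbours only to guide the eye). H2-Ab1, H2-Aa and H2-Eb1 lie below 0 at both times, and H2-DMb2 reaches -2.58 at day 8 beside neighbours at 0.04 and -0.42.

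Among other genes of the class II region, H2-Ea, the I-E alpha chain that C57BL/6 mice do not make because their allele is defective, lay between 4.08 and 4.32 on the 4 arrays, under the floor. H2-Eb2 was also under the floor on each array. Of the 5 genes of this list, 3 were measured and 1 passed the floor, Btnl2, a butyrophilin-like gene. It differed between AMKO and Ctrl by -0.18 at day 8 and 0.18 at basal.

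Factors that bind class II promoters showed small differences between the genotypes. Of 7 listed and measured, 0 were at least 2-fold different between AMKO and Ctrl at either time, with medians of -0.01 at day 8 and -0.15 at basal. At day 8, 2.63% of all genes were at least 2-fold lower and 0.74% higher, and at basal 0.697% and 0.228%. A count of 0 in 7 cannot be told from such shares. Rfx5, a subunit of RFX, had 7.55 in AMKO and 7.56 in Ctrl at day 8, and 7.91 in AMKO and 8.42 in Ctrl at basal. Creb1 differed by -0.52 at day 8 and -0.13 at basal. Between day 8 and basal, Nfyb, a subunit of NF-Y, was higher by 1.11 in AMKO and 0.86 in Ctrl, whereas Rfxank differed by -0.88 and -0.46 and Rfx5 by -0.36 and -0.86. Of the list, 1 gene in AMKO and 0 in Ctrl was at least 2-fold higher after 5FU, where 4.69% and 5.02% of all genes were; 1 of 7 cannot be told from such a share.

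Factors upstream of Ciita included genes that, like H2-DMb2, were highest on the Ctrl day 8 array. Of 12 listed, 11 were measured and passed the floor, and at day 8 Irf8 and Irf4, 2 of the 11, were at least 2-fold lower in AMKO, where 2.63% of all genes were. Irf8, a transcription factor of monocyte, dendritic and B cells, had 6.29 in AMKO and 8.46 in Ctrl at day 8, and 5.72 in AMKO and 5.38 in Ctrl at basal. Irf4 had 4.50 in AMKO and 6.11 in Ctrl at day 8, and 4.42 in AMKO and 4.49 in Ctrl at basal, so it reached the floor only on the Ctrl day 8 array. Irf1, an interferon-induced factor that acts on the Ciita gene, ran the other way at day 8, with 7.37 in AMKO and 6.74 in Ctrl. The interferon-gamma receptor chain Ifngr2 was higher at day 8 than at basal, by 0.89 in AMKO and 1.14 in Ctrl, and Ifngr1 by 0.74 and 0.36.

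The endosomal enzymes that prepare class II molecules and their peptides were mostly higher after 5FU. Of 7 measured, 2 in AMKO and 4 in Ctrl were at least 2-fold higher at day 8 than at basal, where 4.69% and 5.02% of all genes were. None was at least 2-fold lower, where 3.55% and 4.46% of all genes were, and the medians were 0.59 and 1.27, against 0.03 and 0.01 over all genes. Ctss, the cathepsin that cuts the invariant chain, had 9.07 in AMKO and 9.70 in Ctrl at day 8, against 6.62 in AMKO and 7.17 in Ctrl at basal. Lgmn, asparaginyl endopeptidase, was higher by 1.62 in AMKO and 1.27 in Ctrl, and Ifi30, a lysosomal thiol reductase, by 0.74 and 1.54. Between genotypes, Ctsh was the gene of this list at least 2-fold lower in AMKO at day 8, at -1.16, where 2.63% of all genes were, and it differed by -0.46 at basal. Of the 7 enzymes, 6 were below 0 in AMKO minus Ctrl at day 8 and 1 above, with a median of -0.48. At basal 7 of 7 were below 0, with a median of -0.36. Of all genes, 39.5% and 49% were below 0 at these times. A lower value in AMKO at both times was thus not particular to the class II genes.

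Of 9 measured genes of class II traffic and co-stimulation, 7 passed the floor. Among these 7, 0 were at least 2-fold different in any of the 4 comparisons. The shares of all genes ran from 0.228% to 5.02%, and 0 of 7 cannot be told from them. The largest difference between genotypes among the 7 was that of Cd40, a co-stimulatory receptor, at -0.72 at day 8 and 0.11 at basal. Marchf8, a ubiquitin ligase that takes class II molecules off the surface, differed by 0.05 and 0.10. For class I presentation, 13 of 15 genes were measured, and 0 were at least 2-fold different between AMKO and Ctrl at either time. At day 8, 2.63% of all genes were lower and 0.74% higher, and at basal 0.697% and 0.228%, so 0 of 13 is not apart. The class I medians were 0.06 at day 8 and -0.12 at basal. At basal 11 of the 13 were below 0 and 1 above, where 49% of all genes were below. For day 8 these counts were 3 below and 10 above, against 39.5% below. H2-K1, a class I heavy chain, differed by 0.05 and -0.56. Nlrc5, the class I counterpart of Ciita, differed by -0.91 in AMKO and -1.20 in Ctrl after 5FU, and in Ctrl it was the single gene of that list at least 2-fold different, where 4.46% of all genes were at least 2-fold lower.

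Markers of cells that carry class II molecules were read beside H2-DMb2. Those of B-lineage cells, monocytes and macrophages and plasmacytoid dendritic cells were mostly highest on the Ctrl day 8 array. Those of conventional dendritic cells were not. For B-lineage cells, 12 of 13 measured markers were highest on the Ctrl day 8 array, where 20.9% of all genes were. Their summed log2 levels were 71.8 in AMKO and 99.1 in Ctrl at day 8, and 72.2 in AMKO and 71.1 in Ctrl at basal. For monocytes and macrophages the sums over 12 markers were 72.9 and 86.8 at day 8 in AMKO and Ctrl, and 68.07 and 67.04 at basal. For plasmacytoid dendritic cells the sums over 8 markers were 45.6 and 55.9 at day 8, and 44.2 and 44.9 at basal. For conventional dendritic cells the sums over 10 markers were 55.7 and 59.2 at day 8, and 56.4 and 54.8 at basal. Of these 10, 4 were highest on the Ctrl day 8 array and 5 on the AMKO basal array. Itgax and Itgae were under the floor on each array, and Zbtb46, Xcr1 and Mgl2 were under it on the Ctrl day 8 array. Clec10a was at 6.29 on the Ctrl day 8 array and under the floor on the others. At basal the sums were closer between the genotypes than at day 8, but single markers differed by as much as the class II genes did, with AMKO minus Ctrl at 0.81 for Siglech, -0.79 for Spib and -0.85 for Vcam1, each under the floor on both basal arrays. Of the 13 B-lineage markers, 6 in AMKO and 5 in Ctrl reached the floor at basal, Cd79b at 7.77 and 7.94 and Ighm at 7.06 and 7.18 among them, and Ebf1, Pax5 and Ms4a1 did not. The part of such cells in the day 8 values of H2-DMb2 or of the classical genes was not tested.

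**Figure D4:**
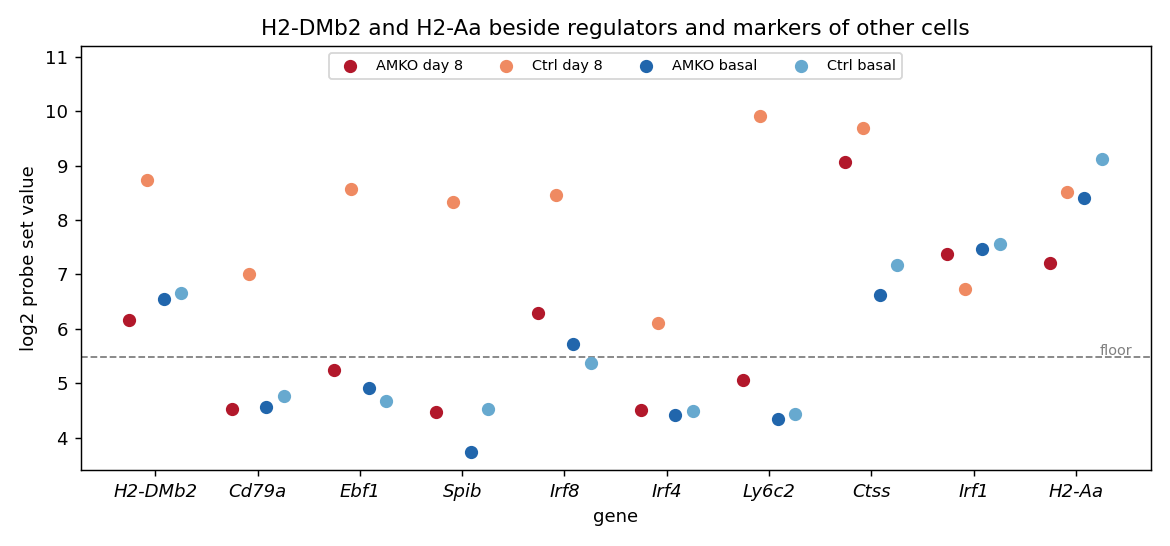
Log2 probe set values (vertical axis) on the arrays of AMKO day 8, Ctrl day 8, AMKO basal and Ctrl basal for H2-DMb2 and H2-Aa beside genes of the regulator, protease and cell marker lists (horizontal axis), 1 point per array. The dashed line is the floor. H2-DMb2, Cd79a, Ebf1, Spib, Irf8, Irf4 and Ly6c2 have their high point on the Ctrl day 8 array, whereas H2-Aa is highest on the Ctrl basal array.

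The genes whose 4-array profile lay nearest to the mean profile of H2-Aa, H2-Ab1 and H2-Eb1 were found by Euclidean distance, after each gene's own mean was taken off. In order they were Zfp867, E330033B04Rik, Ifi203-ps, 6230400D17Rik, Klhdc1, Cpm, Myh2, 4930539J05Rik, Lynx1 and Pgghg, at distances of 0.106 to 0.284 on the log2 scale over 4 arrays. Of these 10, 6 reached the floor on each array. Zfp867, 6230400D17Rik, Cpm and Myh2 reached it only on the Ctrl arrays and so passed through the arrays on which the mean profile is high. Ifi203-ps, at a distance of 0.130, had 7.02 in AMKO and 8.17 in Ctrl at day 8, and 7.75 in AMKO and 8.46 in Ctrl at basal. The classical genes, which make up that mean, lay 0.111 (H2-Eb1), 0.504 (H2-Ab1) and 0.514 (H2-Aa) from it. H2-Aa and H2-Ab1 thus lay farther from it than the 10 profiles named. Of the other class II genes, H2-Oa lay 0.528, Ciita 0.632, H2-DMb1 0.656, H2-Ob 0.938, H2-DMa 1.08 and H2-DMb2 1.74 away. The 10 profiles nearest to H2-DMb2, a search added after its values were seen, lay at distances of 0.090 to 0.363. They were those of an immunoglobulin kappa variable gene, Mtus1, Rab44, Chil1, Slfn4, Fcmr, Cd79a, Ermap, Klra17 and Siglece. Of these 10, 6 reached the floor only on the Ctrl day 8 array and so passed through the array on which H2-DMb2 is high, and 1, Rab44, reached it on each array.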

How the data were processed

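RNA from sorted LSK cells was measured on 4 arrays, 1 per group. Per the labels' protocols, RNA purified on columns was made into biotinylated cRNA by the standard Affymetrix steps. The authors deposited 1 value per probe set and array (34472 probe sets). The deposited values are log2 signals, judged from their range of 1.99 to 13.43, and how the authors corrected background and normalized them is not given in the sources used here. Array medians were 5.43 to 5.55.

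Gene names came from the platform annotation, with symbols updated for 23328 of 23521 probe sets of 1 gene. Differences of 1 array minus 1 array have no test. Averaged effects were fitted with limma 3.58.1 (R 4.3.3, intensity trend, 1 residual degree of freedom, prior 2.62), with Benjamini-Hochberg adjustment over 14061 genes, and the fit was tested on simulated data. Promoters were aligned with Biopython 1.88. The number of arrays limits the precision.

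The class II genes, the 6 pathway lists, the 10 marker lists and the alternatives were chosen with earlier results of these data known. The rule for named genes took up to 4 genes of each list with the largest difference averaged over both pairs, and the 10 nearest profiles, with Cd74 left out of the target profile as it was not measured.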

Additional observations from a re-analysis of the deposited data

Results flagged for a closer look

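H2-DMb2 drew attention because its 5FU difference went opposite ways in the genotypes, -0.38 in AMKO and 2.08 in Ctrl. The difference between these, -2.46, was not tested, since each group had 1 array.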

How the results depend on the processing

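Under quantile normalization and median centring, 75 of 90 single differences of class II genes moved by less than 0.1 on the log2 scale and 15 moved further. Of the 90, 6, none above 0.06 in size as reported, changed sign. Another floor or averaged probe sets cannot change or did not change these differences. H2-DMb2 at day 8 stayed between -2.59 and -2.48, H2-Aa between -1.32 and -1.26 and H2-Eb1 between -1.06 and -1.01. Median centring moved the median of all 5FU differences in AMKO by 0.12, and the median of the class II genes became -0.16. The higher floor left 6 class II genes. Their medians were -0.86 for AMKO at day 8, -0.54 for AMKO at basal and -0.34 for the 5FU difference in AMKO minus that in Ctrl, and 1 of them, H2-Aa, passed limma for 5FU. At a 1.5-fold size, AMKO was lower for 4 of the 9 at day 8 (5.33% of all genes) and 2 at basal (3.63%). At that size, 5FU gave 1 higher (15.4%) and 3 lower (10.5%) in AMKO, and 1 higher (11.9%) and 1 lower (11.9%) in Ctrl. At a 3-fold size, 1 was lower in AMKO at day 8 (1.49%), 0 were lower after 5FU in AMKO (0.967%) and 1 was higher after 5FU in Ctrl (2.06%). Leaving out each array in turn was an alternative chosen after seeing the data and fitted with 1 term. It left 1 array on one side of that term, so a gene that passes there is not read as a result. Of the class II genes, limma called 0 for either effect when run robustly or with no trend. Over all genes, limma for 5FU called 438 higher and 509 lower genes with quantile normalization, 99 and 62 with median centring, 841 and 452 with the higher floor, 744 and 571 with robust estimation and 285 and 176 without the AMKO day 8 array. It called 0 with no trend, no floor or averaged probe sets. For AMKO it called 0 in each of these, but 33 lower genes, none of class II, without the Ctrl basal array. Median centring changed the genes at least 2-fold different after 5FU in AMKO to 958 higher and 382 lower, from 660 and 499, and AMKO at basal to 22 and 135, from 32 and 98. No paired analysis was possible because each group had 1 array. Both Ctrl arrays hold markers of other tissues, and the values have no replicate error.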
